A study of Mus musculus with 6 samples.

Results

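The 10 genes described here mark the mural cells of blood vessels, which are pericytes on capillaries and smooth muscle cells on arteries and larger veins. They were chosen by symbol from a table of 25755 genes, and all 10 were found. Of these, Pdgfrb, Rgs5, Notch3, Abcc9 and Vtn are treated as pericyte genes, and Acta2, Tagln, Myh11, Cnn1 and Des as contractile genes. RNA from whole optic nerves was sequenced in bulk after sham surgery (mice 1, 2 and 3) or optic nerve crush (ON-CR, mice 4, 5 and 6). All 6 mice were NF1flox/flox;hGFAP-Cre, so both groups lacked Nf1 in neuroglial progenitors and in the cells derived from them, where the human GFAP promoter drives Cre recombinase. Surgery was at 6 weeks of age and the nerves were taken at 12 weeks, given as 3 months in the sample labels. No mice without the Nf1 deletion were in this comparison, which asks how the nerve differed 6 weeks after crush from a sham-operated nerve of the same genotype.

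Mural cells wrap the endothelial tube inside a shared basement membrane. Endothelial cells secrete PDGF-B, which holds pericytes at the vessel through the receptor PDGFR-beta, and endothelial Jagged ligands signal to NOTCH3 on mural cells. Arterial smooth muscle contracts through filaments of smooth muscle actin and myosin, and capillary pericytes carry little of this apparatus. In the central nervous system pericytes help to maintain the blood-brain barrier, and mural and perivascular cells have been studied as a source of fibrous scar after injury. For ON-CR nerves of this genotype, the paper reports optic glioma at the age of analysis, with greater nerve volume and cellularity than after sham surgery. Normalized values are relative to the rest of the library. In bulk tissue, fewer cells of a type, less RNA per cell and more RNA from other cells therefore cannot be told apart.

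The libraries held 17414091 to 23621086 estimated reads on genes, and the 3 deepest were the sham libraries. Values are gene counts that the authors divided by one factor per library, and are called normalized values below. Oligodendrocyte transcripts characterized the tissue in all libraries, with Mbp at 369255 to 1296440, and of 6 oligodendrocyte markers 5 were lower after ON-CR at an adjusted p at or under 0.05 by limma. Of 5 astrocyte markers, 0 passed. In 3 of them the ON-CR values were all above the sham values, as in 10.5% of all genes, and 1 had a log2 fold change below 0. Gfap was at 99186 to 123408 in sham and 156465 to 202957 in ON-CR libraries (adjusted p = 0.0859 in limma). Photoreceptor markers summed to at most 72.4 in any library. Nf1 itself was at 343 to 447 in sham and 380 to 438 in ON-CR libraries, with no undeleted nerve to compare. The groups differed in sex-linked transcripts. Xist was at 2.14 to 30.9 in the sham group and at 2708 to 6357 in the ON-CR group, and Ddx3y at 1291 to 1645 in the sham group and at 976, 4.19 and 0 in mice 4, 5 and 6. ON-CR mouse 4 thus held both transcripts, and whether its RNA came from 1 animal was not tested. The effect of sex and that of surgery cannot be told apart for any gene, and the fits without mouse 4 are among the settings tried. Libraries also stood apart by transcripts of other tissues. Blood markers, led by the globin genes Hbb-bs and Hba-a2, summed to 509446 in sham mouse 1 and to 137058 in ON-CR mouse 4, with the others from 245789 to 378120. Airway epithelium genes (7 of 8 listed were in the table, led by Bpifa1) summed to 7905, 5514 and 6258 in sham mouse 3 and ON-CR mice 5 and 6, against 95.1 to 179 in the others, and the immunoglobulin gene Igkc was at 83710 in ON-CR mouse 6 against 48.2 to 1602 elsewhere.

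None of the 10 mural genes passed an adjusted p at or under 0.05 by limma, in either direction, while 2.10% of all genes did (540 of 25755). At an unadjusted p at or under 0.05 there were 2, Pdgfrb and Des, both lower after ON-CR, against 15.6% of all genes, and 0 that also changed at least 2-fold, against 4.66%. The sham and ON-CR values were free of overlap for 1 of the 10, Des, against 21.6% of all genes. The median log2 fold change was 0.037 over the 10 genes and 0.028 over all genes tested. With 3 mice against 3, an exact permutation test of a single gene cannot give a p below 0.1. In 6 of the 10 genes the 95% confidence interval of the fold change lay within a 2-fold change either way, as it did for 47.8% of all genes. These 6 were the 5 pericyte genes and Tagln, so a change of more than 2-fold lay outside the interval of every pericyte gene. The intervals are not adjusted for the number of genes.

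**Figure D1:**
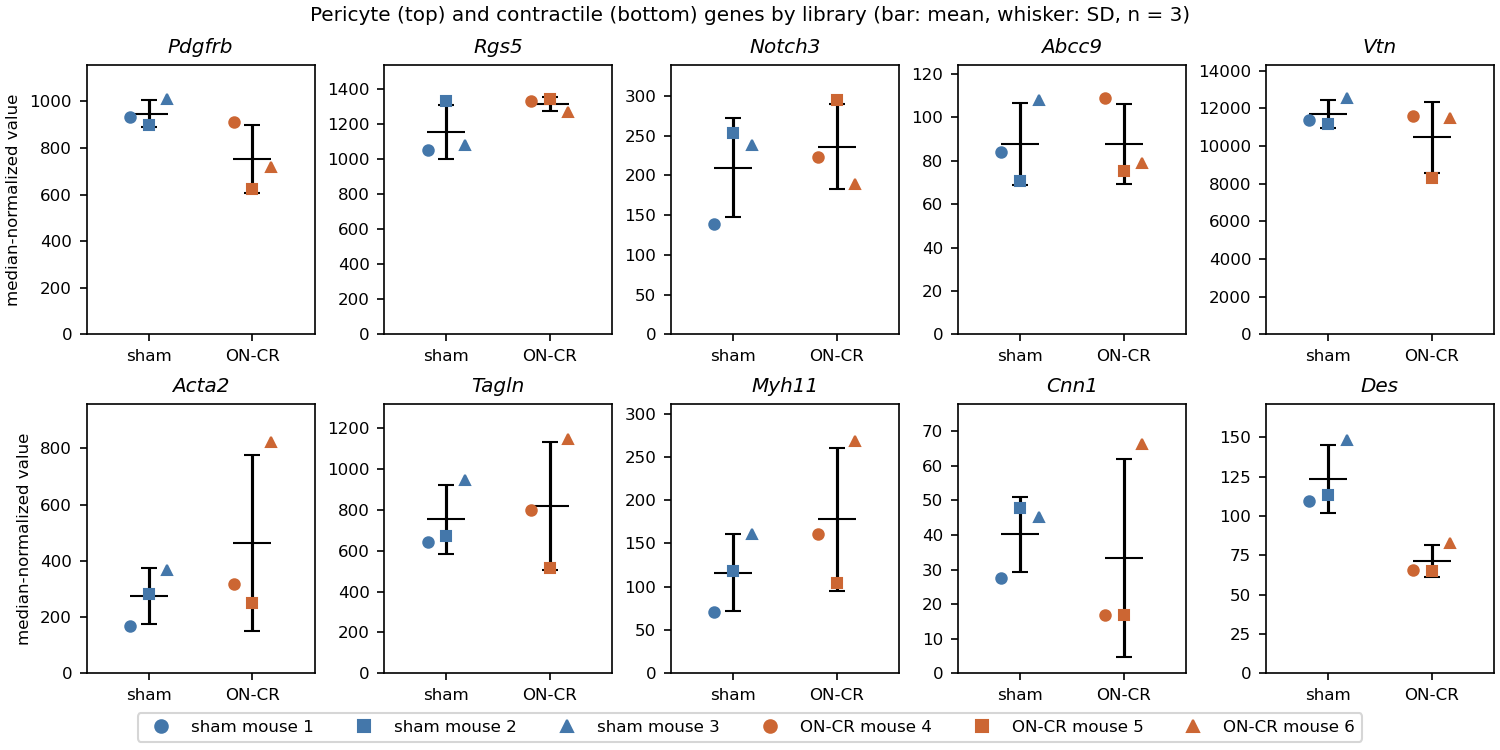
Normalized value (y axis, from 0) of each mural gene in the 3 sham and 3 ON-CR libraries, with 1 point per mouse, the group mean as a horizontal bar and the SD as whiskers. The ON-CR points lie below all sham points for Des alone, and ON-CR mouse 6 is the highest of the 6 libraries for Acta2, Tagln, Myh11 and Cnn1.

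Rgs5 is among the most selective pericyte transcripts, and its product speeds the shut-off of G protein signalling downstream of vasoconstrictor receptors. It lies on chromosome 1 of GRCm38 from 169655501 to 169695813 (ENSMUSG00000026678.10). Normalized values of Rgs5 were 1054, 1332 and 1083 after sham surgery (mice 1 to 3) and 1331, 1345 and 1269 after ON-CR (mice 4 to 6). The ON-CR libraries were close to each other and sat at the level of sham mouse 2. The fitted fold change was 1.14, with a 95% interval of 0.945 to 1.38 (adjusted p = 0.50 in limma). Of the 10 genes, Rgs5 had the narrowest range, with 0.35 between its highest and lowest library on the log2 scale.

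Pdgfrb (ENSMUSG00000024620.11) encodes the receptor for PDGF-B and is also expressed by fibroblasts of the meninges and vessel sheath. It was at 935, 899 and 1011 after sham surgery (mice 1 to 3). After ON-CR (mice 4 to 6) it was at 910, 624 and 721. Mouse 4 lay within the sham range, whereas mice 5 and 6 lay below it. The means were 948 ± 57.6 and 752 ± 146 (SD, n = 3 each). On the log2 scale the difference was -0.35 with a standard error of 0.15 (adjusted p = 0.296 in limma). Leaving out ON-CR mouse 4 gave a log2 fold change of -0.50 and leaving out ON-CR mouse 5 gave -0.23, with adjusted p-values of 0.140 and 0.479 by limma.

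Vtn encodes vitronectin, an adhesive glycoprotein of plasma and matrix that brain pericytes make. Its locus is on chromosome 11 of GRCm38 from 78499091 to 78502324 (ENSMUSG00000017344.4). Sham mice 1, 2 and 3 had normalized values of 11389, 11185 and 12546 for Vtn. The ON-CR values were 11595, 8298 and 11486 in mice 4, 5 and 6. ON-CR mouse 5 stood well below the other libraries, which were close together, and it was also the lowest for Pdgfrb. The fold change was 0.884 with an interval of 0.709 to 1.10 (adjusted p = 0.605 in limma).

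Notch3 encodes the Notch receptor of mural cells, needed for arterial smooth muscle identity, and Abcc9 the regulatory subunit SUR2 of the ATP-sensitive potassium channel of pericytes. Notch3 (chromosome 17 of GRCm38 from 32120820 to 32166852) was at 139, 253 and 238 in the sham libraries and at 223, 295 and 190 in the ON-CR libraries. Sham mouse 1 was lowest and ON-CR mouse 5 highest, and the other four libraries were between 190 and 253. Abcc9 (chromosome 6 of GRCm38 from 142587862 to 142702315) was at 83.8, 70.8 and 108 after sham surgery and at 109, 75.5 and 78.9 after ON-CR. The 2 groups covered nearly the same range, and the group means were 87.6 ± 18.9 and 87.7 ± 18.3 (SD, n = 3 each). Fold changes were 1.14 for Notch3 (interval 0.770 to 1.69) and 1.00 for Abcc9 (interval 0.676 to 1.49), with adjusted p-values of 0.778 and 0.995 by limma. The antisense gene Gm17276, at 6.98 to 20.2 in the libraries, shares 6.03% of the exonic bases of Notch3, and estimated reads of Notch3 were whole numbers in 1 of 6 libraries only.

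**Figure D2:**
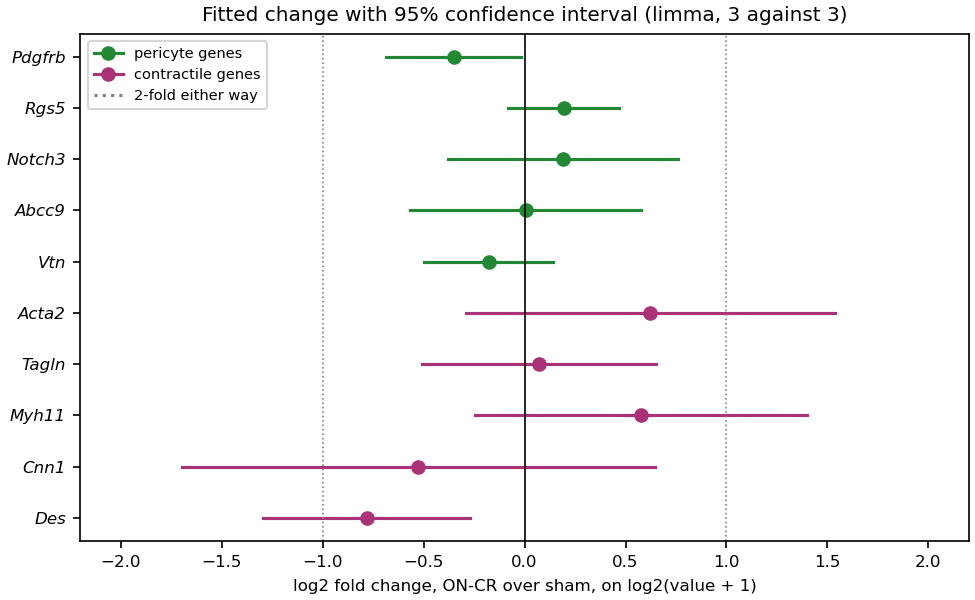
Log2 fold change of ON-CR over sham on the log2(value + 1) scale (x axis) for each mural gene, with the 95% confidence interval from limma as a line. All 5 pericyte intervals stay inside the dotted lines at a 2-fold change, whereas those of Acta2, Myh11, Cnn1 and Des reach beyond them.

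Acta2 and Myh11 varied more between mice within each group than any pericyte gene, and Tagln and Cnn1 did so after ON-CR only. On the log2 scale the SD of Acta2 was 0.57 in sham and 0.91 in ON-CR libraries. Notch3, the most variable pericyte gene in both groups, had 0.48 and 0.32, and Des had 0.24 and 0.20. Acta2 encodes smooth muscle alpha-actin, which myofibroblasts also express, and lies on chromosome 19 of GRCm38 from 34241090 to 34255590 (ENSMUSG00000035783.9). After sham surgery (mice 1 to 3) it was at 170, 283 and 369, and after ON-CR (mice 4 to 6) at 319, 249 and 821. Mice 4 and 5 were within the sham range and mouse 6 was above every other library. Its fitted log2 difference was 0.62 with a standard error of 0.41 (adjusted p = 0.515 in limma). The size of this difference depended on single mice, as it was 0.11 when ON-CR mouse 6 was removed and 0.97 when mouse 5 was. Among the 50-base windows of the Acta2 transcripts, 0.326% occur in a transcript of another gene, led by an actin pseudogene, and whole numbers of reads were recovered in 4 of 6 libraries.

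Myh11, the heavy chain of smooth muscle myosin and the most specific gene for differentiated smooth muscle among the 10, followed Acta2 from mouse to mouse. It is found on chromosome 16 of GRCm38 from 14194535 to 14291372. Its values were 71.1, 118 and 161 in the sham libraries and 161, 105 and 268 in the ON-CR libraries, and mouse 6 was again highest. Within each library the ratio of Myh11 to Acta2 was 0.419, 0.416 and 0.435 after sham surgery (mice 1 to 3) and 0.503, 0.422 and 0.326 after ON-CR (mice 4 to 6), a narrower spread than that of either gene. The fold change was 1.49 with an interval of 0.845 to 2.64 (adjusted p = 0.498 in limma), and the log2 fold change of 0.58 was 0.23 without ON-CR mouse 6.

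Tagln encodes transgelin, an actin-binding protein of smooth muscle and activated fibroblasts (chromosome 9 of GRCm38 from 45929619 to 45936058). Sham libraries had 641, 671 and 945, and ON-CR libraries 797, 515 and 1143, with ON-CR mouse 5 lowest and mouse 6 highest of all. The fold change was 1.05 with an interval of 0.702 to 1.57 (adjusted p = 0.930 in limma). The antisense gene Gm48529 covers 62.4% of the exonic bases of Tagln and Pcsk7 another 5.43%, and only 1 of 6 libraries gave a whole number of reads. Gm48529 itself was at 13.5 to 24.9, and reads of the pair cannot be told apart without strand. Cnn1, which encodes calponin and restrains the myosin motor in smooth muscle, had 27.6, 47.8 and 45.1 after sham surgery (mice 1 to 3). After ON-CR (mice 4 to 6) it had 17.0, 16.8 and 66.5. Mice 4 and 5 lay below all sham mice and mouse 6 above them, and the log2 fold change of -0.53 (adjusted p = 0.688 in limma) became -1.17 without ON-CR mouse 6.

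Des encodes desmin, the intermediate filament of muscle cells, which also marks pericytes, and lies on chromosome 1 of GRCm38 from 75360329 to 75368579 (ENSMUSG00000026208.9). Its normalized values were 109, 113 and 148 after sham surgery (mice 1 to 3) and 65.8, 65.0 and 83.1 after ON-CR (mice 4 to 6). All ON-CR values were below all sham values, an arrangement in the lower direction that 11.0% of all genes shared. The means were 124 ± 21.5 and 71.3 ± 10.2 (SD, n = 3 each), and the fold change was 0.582 with an interval of 0.408 to 0.830. The log2 fold change of -0.78 (standard error 0.23) had an adjusted p of 0.126 by limma, which did not pass. It stayed between -0.90 and -0.64 over the other settings, with adjusted p-values by limma from 0.105 to 0.307. Within each library, the ratio of Des to Rgs5 was 0.104, 0.0851 and 0.137 in sham mice and 0.0494, 0.0483 and 0.0655 after ON-CR, again without overlap. Desmin is abundant in skeletal muscle, which adjoins the nerve in the orbit. Skeletal muscle markers (13 of 15 in the table, led by Ttn) summed to 465 to 1047 in sham and 462 to 581 in ON-CR libraries. Of the 13, 9 had log2 fold changes below 0 (12147 of 25755 over all genes), and the median of the 13 was -0.58. Of these 13, 1 passed, Myl1, a myosin light chain of fast muscle. Myl1 had few reads, and was lower at 0 in all ON-CR libraries against 5.31 to 13.8 in sham libraries (adjusted p = 0.0485 in limma, not recomputed under other settings). The other 4 were above 0, and among them Tnni2 was at 14.9 to 32.9 in sham and 41.9 to 75.8 in ON-CR libraries (adjusted p = 0.126 in limma). The 4 cardiac and shared striated muscle markers had a median log2 fold change of -0.50. The part of muscle in the lower Des was not tested.

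**Figure D3:**
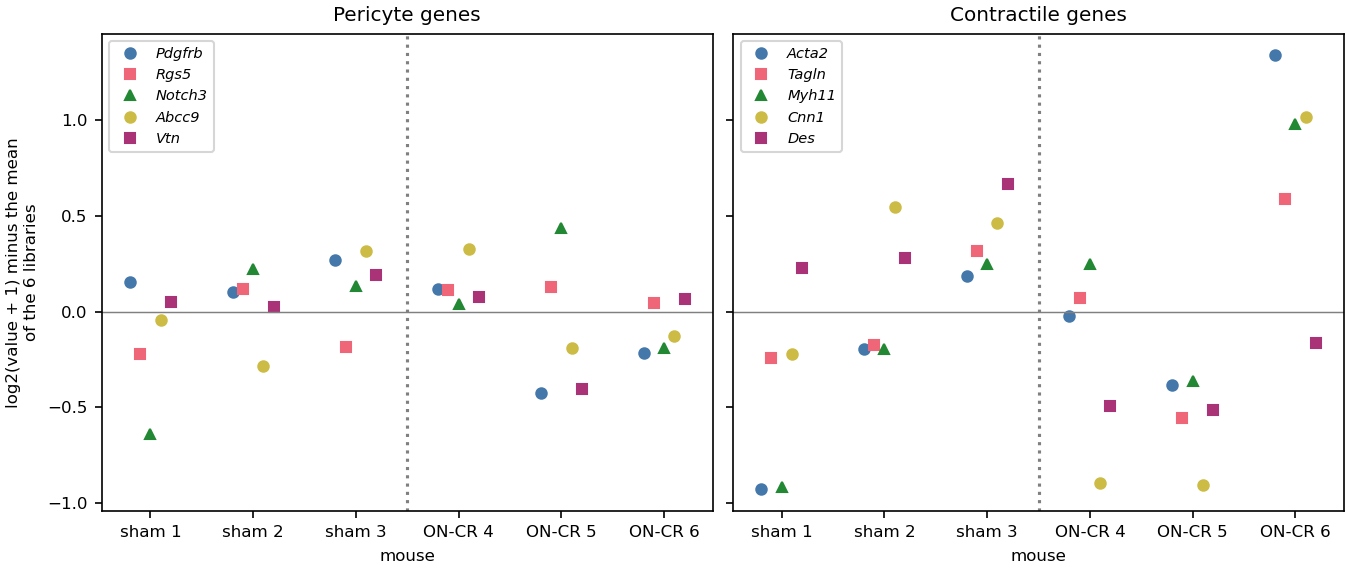
Log2(value + 1) of each gene minus its mean over the 6 libraries (y axis) against the mouse (x axis), for pericyte genes on the left and contractile genes on the right. In ON-CR mouse 6 the genes Acta2, Cnn1, Myh11 and Tagln are all at least 0.59 above their means while Des is below its own, and the farthest pericyte point is Notch3 in sham mouse 1, at -0.64.

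Averaged on the log2 scale and relative to the mean over all libraries, the contractile genes were at -0.42, 0.052 and 0.38 after sham surgery (mice 1 to 3) and at -0.22, -0.54 and 0.75 after ON-CR (mice 4 to 6). The average of the pericyte genes stayed between -0.14 and 0.15 in the same libraries, but single genes ran wider, with Notch3 from -0.64 to 0.44. Pearson correlations between pairs of genes over the 6 libraries had a median of 0.62 within the contractile set (range -0.13 to 0.97) and -0.22 within the pericyte set (range -0.59 to 0.84). Des did not follow all of its set, with -0.086 for Acta2, -0.13 for Myh11, 0.27 for Tagln and 0.61 for Cnn1. The spread of the contractile genes was thus found within both groups. High airway epithelium sums were found in sham mouse 3 and ON-CR mouse 6, the pair with the highest contractile means, and in ON-CR mouse 5, with the lowest. For Acta2 and Myh11 alone the lowest library was sham mouse 1 (-0.93 and -0.92), and ON-CR mouse 5 was at -0.38 and -0.36. ON-CR mouse 6 was also the library with the most Igkc. The part of other tissues in the contractile values was not tested.

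Compared per kilobase of exon, the order of levels in sham mice was Vtn, Tagln, Rgs5, Pdgfrb, Acta2, Des, Notch3, Myh11, Cnn1 and Abcc9. Vtn stood far above the rest at 5767 ± 362 per kilobase (SD, n = 3), followed by Tagln at 378 ± 84.3 and Rgs5 at 254 ± 33.7. Sham libraries overlapped between Pdgfrb (173 ± 10.5 per kilobase) and Acta2 (125 ± 45.5 per kilobase), and between each neighbouring pair from Des to Abcc9, so the order among these is not settled by 3 mice. By their ON-CR means Acta2 (211 ± 142 per kilobase) stood before Pdgfrb (137 ± 26.6 per kilobase), but only through mouse 6, since Pdgfrb was the higher of the pair in mice 4 and 5. Des, at 19.0 ± 2.72 per kilobase after ON-CR against 32.9 ± 5.73 in sham mice, had a lower ON-CR mean than Notch3 and Myh11, and its ON-CR libraries overlapped those of Myh11.

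Promoter sequence is shown for the contractile genes that have an entry, because serum response factor, bound to the CArG box, is the known common regulator of this gene set. The windows run from 250 bases before to 50 bases after the RefSeq start of each gene and are from GRCm38.p6, 5′ to 3′ along the gene. Acta2 is at chr19.0:34255324-34255623 on the minus strand, Cnn1 at chr9.0:22099003-22099302 on the plus strand and Des at chr1.0:75360042-75360341 on the plus strand. Capitals mark CArG-like matches, in which at least 5 of the 6 inner bases are A or T.
Acta2: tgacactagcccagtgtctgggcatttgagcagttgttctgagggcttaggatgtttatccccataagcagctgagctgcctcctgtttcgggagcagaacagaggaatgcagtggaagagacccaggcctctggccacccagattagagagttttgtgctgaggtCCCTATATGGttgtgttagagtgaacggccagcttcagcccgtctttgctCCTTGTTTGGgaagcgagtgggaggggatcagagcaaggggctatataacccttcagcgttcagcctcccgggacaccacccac
Cnn1: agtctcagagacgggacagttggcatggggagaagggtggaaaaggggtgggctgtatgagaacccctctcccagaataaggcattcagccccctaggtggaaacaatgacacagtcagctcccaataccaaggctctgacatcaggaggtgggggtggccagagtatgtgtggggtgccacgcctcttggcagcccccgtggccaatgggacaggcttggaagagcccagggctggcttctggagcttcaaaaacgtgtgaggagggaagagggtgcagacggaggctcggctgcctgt
Des: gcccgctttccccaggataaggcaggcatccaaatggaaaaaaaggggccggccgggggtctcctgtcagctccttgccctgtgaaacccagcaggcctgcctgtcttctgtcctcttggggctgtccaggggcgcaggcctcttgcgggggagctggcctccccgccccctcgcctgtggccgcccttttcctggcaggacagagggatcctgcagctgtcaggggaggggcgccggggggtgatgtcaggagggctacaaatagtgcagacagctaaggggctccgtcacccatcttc
Of the 10 genes, 7 had a promoter in the table, and Pdgfrb, Tagln and Myh11 did not. Acta2 alone among these 7 had CArG-like matches in its window, which begin 84 and 34 bases before its start. Sequence outside the windows was not searched, so a gene without a match here may hold one elsewhere. The search pattern is its own reverse complement and so covers both strands. Such a match was held by 9.98% of 32851 promoters of this length, and the strict CArG box, with A or T at all inner positions, by 1.63% of them and by none of the 7. Srf itself was at 31.9 to 48.8 in sham and 34.3 to 50.9 in ON-CR libraries. Its coactivator gene Myocd was at 5.31 to 6.37 in sham libraries and at 2.99, 0 and 0 after ON-CR (mice 4 to 6), which is at or below 3 reads per library (adjusted p = 0.214 in limma). In the list of SRF and myocardin control genes, of which 7 of 8 were in the table, 0 passed, and the 2 most abundant were Mef2c (959 ± 142 and 1419 ± 251, SD, n = 3 each, adjusted p = 0.121 in limma) and Mrtfb (849 ± 33.8 and 848 ± 124, adjusted p = 0.979 in limma).

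Genes that work with the 10 were taken from lists of ligands, receptors, targets and further mural markers, 74 distinct genes in all, of which 4 were higher and 1 lower after ON-CR at an adjusted p at or under 0.05 by limma. Over all genes the shares were 0.971% higher and 1.13% lower. Their median log2 fold change was -0.012.

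The clearest of these was Rgs4, a relative of Rgs5 that acts on the same G proteins, is expressed in pericytes, neurons and other cells, and lies 45663 bases beyond Rgs5 on chromosome 1. Rgs4 had normalized values of 548, 531 and 460 after sham surgery (mice 1 to 3) and of 1149, 1145 and 1020 after ON-CR (mice 4 to 6). Every ON-CR library held more than any sham library. The fold change was 2.15 with an interval of 1.77 to 2.61 (adjusted p = 0.00283 in limma). It passed the threshold whichever mouse was removed. Without a mean-variance trend its adjusted p by limma was 0.133. The ratio of Rgs4 to Rgs5 within a library ran from 0.399 to 0.520 in the sham group and from 0.804 to 0.863 after ON-CR. The promoters of the neighbours are given to set them side by side, Rgs5 at chr1.0:169655251-169655550 on the plus strand and Rgs4 at chr1.0:169747593-169747892 on the minus strand, with the TATA motif (TATAAA, searched on both strands) in capitals.
Rgs5: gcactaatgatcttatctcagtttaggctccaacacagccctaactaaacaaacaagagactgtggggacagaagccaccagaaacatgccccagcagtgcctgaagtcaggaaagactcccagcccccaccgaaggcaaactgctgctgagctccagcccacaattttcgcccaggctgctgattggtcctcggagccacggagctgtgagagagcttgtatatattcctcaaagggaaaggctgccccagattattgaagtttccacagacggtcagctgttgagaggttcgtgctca
Rgs4: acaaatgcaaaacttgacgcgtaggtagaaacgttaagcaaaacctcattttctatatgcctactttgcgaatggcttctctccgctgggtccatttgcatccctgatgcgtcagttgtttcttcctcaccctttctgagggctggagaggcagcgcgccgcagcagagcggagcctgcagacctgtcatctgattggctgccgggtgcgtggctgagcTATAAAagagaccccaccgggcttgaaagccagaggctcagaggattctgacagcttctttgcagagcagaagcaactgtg
The exact string TATAAA begins 31 bases before the start of Rgs4 and is not in the Rgs5 window, and 13.6% of all promoters in the table held it. Variants of the motif were not searched, and the Rgs5 window holds the similar stretch tatatatt, so a TATA box in Rgs5 is not excluded. A further relative, Rgs2, was at 325 to 386 in sham and 553 to 797 in ON-CR libraries, with a fold change of 1.94 (interval 1.5 to 2.51, adjusted p = 0.020 in limma). Removal of single mice gave adjusted limma p-values of 0.0664, 0.0983 and 0.0836 without sham mouse 1, 2 or 3 and 0.148 without ON-CR mouse 6. Of the 7 genes of the potassium channel and RGS list these 2 passed, both higher. Kcnj8, the pore that Abcc9 regulates, was at 98.6 to 148 in sham and 112 to 141 in ON-CR libraries (adjusted p = 0.882 in limma).

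Among 8 partners of vitronectin, 2 were higher and 1 lower. Plau, which encodes the protease urokinase, was at 9.55, 8.85 and 13.1 after sham surgery (mice 1 to 3) and at 72.8, 55.6 and 54.0 after ON-CR (mice 4 to 6). Its receptor gene Plaur, whose product also binds vitronectin, went from 34.0, 52.2 and 68.6 to 259, 109 and 197. Neither gene had overlapping groups, which held in the higher direction for 10.5% of all genes. Both are widely expressed by activated myeloid cells. The fold changes were 5.38 for Plau (interval 3.11 to 9.33, adjusted p = 0.00846 in limma) and 3.53 for Plaur (interval 2.04 to 6.10, adjusted p = 0.0305 in limma). Itgb3, the beta subunit of the vitronectin receptor, was at 174, 209 and 192 in sham libraries and at 101.7, 75.5 and 99.7 in ON-CR libraries, a fold change of 0.482 (interval 0.353 to 0.658, adjusted p = 0.0287 in limma). Leaving out sham mouse 2 gave adjusted p-values by limma of 0.0506 for Plau, 0.136 for Plaur and 0.173 for Itgb3. Without ON-CR mouse 6 they were 0.0763, 0.205 and 0.123. Plaur and Itgb3 also lost the call without sham mouse 1 (0.120 and 0.0860) and without sham mouse 3 (0.0595 and 0.0992), and Plaur without ON-CR mouse 4 (0.0819).

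In the PDGF list 0 of 5 genes passed. Pdgfb, the ligand for the pericyte receptor, was at 46.7, 70.8 and 52.6 after sham surgery (mice 1 to 3) and at 133, 82.8 and 105 after ON-CR (mice 4 to 6). The groups did not overlap, as for 10.5% of all genes in the higher direction. The log2 fold change of 0.90 (standard error 0.27) had an adjusted p of 0.139 by limma. Pdgfd, which activates the same receptor, was at 716 to 949 in sham and 562 to 585 in ON-CR libraries, a log2 fold change of -0.46 (adjusted p = 0.139 in limma). Pdgfra and Pdgfa, the most abundant genes of the list, differed by -0.29 and -0.15 on the log2 scale (adjusted p = 0.294 and 0.602 in limma). Notch ligands and targets gave 0 of 9. Of these, Hey2, a target of Notch in arterial cells, was at 143 to 164 in sham and 204 to 328 in ON-CR libraries (log2 fold change 0.70, adjusted p = 0.127 in limma). Heyl, the target most closely tied to NOTCH3 in mural cells, was at 222 to 309 and 225 to 262, and the most abundant, Jag1 and Hey1, had log2 fold changes of -0.11 and -0.018.

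Further pericyte markers gave 1 of 18, Rgs4, and further contractile genes 0 of 22. Their median log2 fold changes were -0.026 and 0.050. The most abundant contractile genes of that list, Myl6 and Cald1, had fold changes close to 1, with log2 values of -0.013 and -0.048 (adjusted p = 0.974 and 0.931 in limma).

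**Figure D4:**
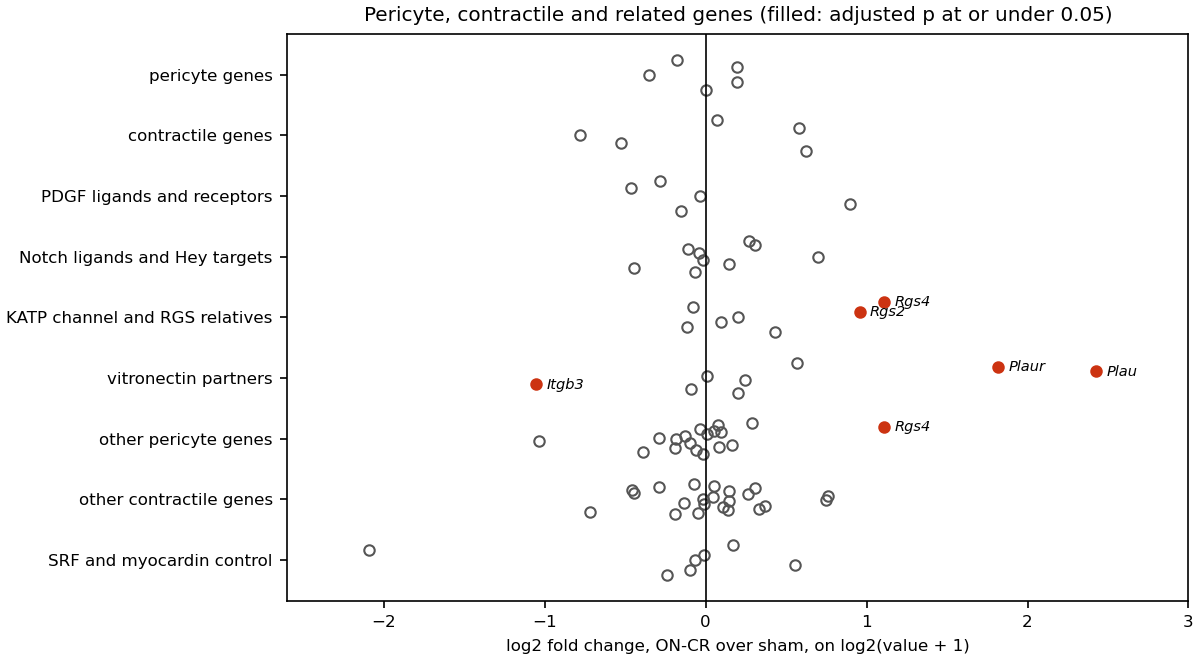
Log2 fold change of ON-CR over sham (x axis) for the pericyte and contractile genes and for each related list (y axis), with 1 circle per gene and filled circles at an adjusted p at or under 0.05 by limma. Filled circles are Rgs4, Rgs2, Plaur and Plau on the right and Itgb3 on the left, and Rgs4 stands in 2 of the lists.

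Endothelial cells, the partners of pericytes in the vessel wall, had 0 of 12 markers past the threshold and a median log2 fold change of -0.058. Their most abundant markers were Slc2a1, at 3121 to 3356 in sham and 2799 to 3544 in ON-CR libraries, and Flt1, at 811 to 1133 and 921 to 1272. The summed endothelial value was 8500 to 9533 in sham and 8056 to 9160 in ON-CR libraries. Fibroblast markers, which share Pdgfrb with pericytes, had log2 fold changes below 0 in 12 of 12 genes, against 12147 of 25755 over all genes. As markers of 1 cell type, the 12 are not independent observations. Their median was -0.38, and 1 passed. That gene, Fbln1, was at 3978, 4167 and 4638 after sham surgery (mice 1 to 3) and at 2583, 1901 and 1676 after ON-CR (mice 4 to 6) (fold change 0.475, interval 0.373 to 0.605, adjusted p = 0.00815 in limma). Removal of single mice gave adjusted limma p-values of 0.0571 without sham mouse 2, 0.050 without sham mouse 3, just above the threshold, and 0.0763 without ON-CR mouse 6, and without a mean-variance trend the value was 0.18. Slc6a13 and Igf2, the most abundant fibroblast markers, differed by -0.62 and -0.21 on the log2 scale (adjusted p = 0.147 and 0.638 in limma). Summed fibroblast values were 41900 to 49322 in sham libraries and 41373, 26113 and 32156 after ON-CR (mice 4 to 6). The part of fibroblasts in the Pdgfrb values was not tested.

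The genes most like the 2 sets from library to library were ranked among 14427 genes with a mean value of at least 50, by Pearson correlation over the 6 libraries, as a description without a test. For the contractile genes they were Myof, Gm10157, Lipo3, Tpm2 and Ifitm1, with Tpm2, a tropomyosin of smooth muscle, at 238, 309 and 355 after sham surgery (mice 1 to 3) and 302, 237 and 407 after ON-CR (mice 4 to 6). For the pericyte genes they were Foxo3, Irf2bp2, Dnajc2, Atp8a1 and 4930594M22Rik, none of them a marker on the pericyte lists used here. The correlations ran from 0.968 to 0.991 and from 0.977 to 0.988. With so many genes and 6 libraries, high values are found among the top ranks of any such list.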

How the data were processed

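RNA from 6 optic nerve samples was sequenced by the authors, aligned and quantified with DRAGEN, and assigned to Ensembl gene models of mm10 in Partek 10.0. The deposited values are a normalized signal, gene counts that the authors divided by one factor per library (median normalization), and are not whole numbers. The study tested counts with DESeq2, which the deposited values do not allow. Values were therefore compared on the scale log2(value + 1) by linear models with a mean-variance trend (limma 3.58.1, R 4.3.3), without a filter on low values, and p-values of all 25755 genes were adjusted by the Benjamini-Hochberg method. The test was checked on simulated data with changes larger than those of the mural genes, so the check does not show its power for them. Fold changes are on this scale and understate the change of low genes. Dividing each library by its most frequent low value gave estimated reads, of which 68.6% to 70.8% were whole within 0.02 of a read plus rounding, so no count model was run. At 3 reads the normalized value is 2.66 to 3.18. This limit covers counting error only.

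Groups were taken from the sample titles. Each library was treated as 1 replicate and as 1 mouse, as the titles have it. The paper's section on RNA extraction and real-time PCR gives 2 mice per sample, and whether this held for the sequenced RNA is not stated. Replicate libraries differed by more than counting noise (chi-square over its degrees of freedom, 16.5 to 47.3). Lists are described by counts and medians, without a set test. The members and lists were chosen with earlier results of these data known. Named were all members, partner genes that passed or else the 2 most abundant of a list, and the 2 most abundant markers. Kcnj8, Pdgfb, Pdgfd, Hey2, Heyl, Srf, Myocd, Igkc, Myl1, Tnni2, Fbln1, Tek, Vwf, Angpt1 and Egr2 were named after their values were seen. The kit (SMARTer Ultra Low) does not mark strand. Gene positions, exon lengths and shared windows of 50 bases are from GENCODE M21 (GRCm38), and all 165 listed genes were found there once. Settings tried were other pseudocounts, scalings and variance models, a minimum mean value of 10, and leaving out each mouse.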

Additional observations from a re-analysis of the deposited data

How the results depend on the processing

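None of the 10 genes passed an adjusted p at or under 0.05 by limma in the reported fit or in any of the 15 other settings, but no count model was run, and the number of calls over all genes depended strongly on the setting. It was 540 in the reported fit, 7 without a mean-variance trend, and 67 to 854 with single mice removed, lowest without ON-CR mouse 6. Calls among the 74 related genes fell from 5 to 0 without the trend and ran from 1 to 6 with each mouse left out. Scaling every library to the same total moved the median log2 fold change of all genes from 0.028 to 0.15 and the share of higher genes among those called from 46.3% to 68.3%. Directions changed for genes near 0. Abcc9 was at -0.0034 under TMM scaling and between -0.16 and 0.17 with each mouse left out, Notch3 between -0.082 and 0.35, and Tagln between -0.21 and 0.37, all on the log2 scale and none past the threshold. No paired analysis was possible because mice carry different numbers in the groups. The cause of these changes was not tested. With 3 mice a group, a gene that did not pass may still differ by any amount within its 95% interval.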

Other observations

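Among vessel wall genes not on the mural lists, the endothelial receptor gene Tek, whose ligand Angpt1 is made by mural cells, was at 280, 241 and 221 after sham surgery (mice 1 to 3) and at 164, 150 and 160 after ON-CR (mice 4 to 6). The groups did not overlap, as for 11.0% of all genes in the lower direction. The log2 fold change of -0.64 (standard error 0.17) had an adjusted p of 0.0895 by limma. Angpt1 itself was at 766 to 861 in sham and 720 to 848 in ON-CR libraries. Vwf, the von Willebrand factor of endothelial cells, was at 441, 693 and 574 in sham libraries and 746, 706 and 1078 in ON-CR libraries, with an adjusted p of 0.209 by limma. Blood markers gave 0 of 7 and cardiac or shared striated muscle markers 0 of 4 in the table. Schwann cell markers gave 1 of 6, Egr2, an immediate early gene in many other cells, which was higher at 52.4 to 116 against 14.2 to 24.4 in sham mice (adjusted p = 0.0250 in limma, not recomputed under other settings).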
